A study of Mus musculus with 6 samples.

Results

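Dividing cells of the Day 7 digits-in-a-dish (DID) cultures were examined as the cells in which transcripts of *Top2a* and *Mki67* were abundant. A barcode was kept when it had at least 3000 UMIs (unique molecular identifiers, each standing for 1 captured transcript), at most 7500 detected genes and at most 25% of its UMIs on mitochondrial genes. A kept cell was called dividing when it held at least 10 UMIs of *Top2a* and *Mki67* together. The members were thus chosen by the UMI counts of these 2 genes, as measured in the same libraries. This rule found 1836 dividing cells among 18728 Day 7 cells, 983 of 9355 in replicate A and 853 of 9373 in replicate B. They were compared with the 11298 cells of the same libraries that held 0 UMIs of both genes (5410 in A and 5888 in B), called zero-UMI cells here. Another 2962 and 2632 cells held 1 to 9 UMIs and stood in neither class. Over all 6 libraries of the series, 54126 of 91215 barcodes passed the limits.

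DID cultures are grown from the distal forelimb mesenchyme of CD-1 mouse embryos at E11.5, which is pooled, dissociated and seeded at high density, so that each culture mixes cells of several embryos. Single-cell RNA libraries (10x Genomics 3′ v3.1) were made on Day 2, Day 7 and Day 10 of culture, each from 2 independent cultures that served as replicates A and B. All 6 cultures came from wild-type embryos, and the labels name no added agent. Day 7 was compared with Day 2 and with Day 10.

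A cell that divides first copies its DNA in S phase and then condenses and separates the copies in G2 and M phase. *Top2a* encodes topoisomerase II alpha, which untangles the copied DNA strands, and *Mki67* encodes Ki-67, a coat protein of mitotic chromosomes and the usual stain for cycling cells. Both transcripts rise late in the cycle, so cells early in the cycle can hold few of them. In growing digits, division continues in the perichondrium, in connective tissue and in the columns of immature chondrocytes, whereas cells that become prehypertrophic leave the cycle. The cyclin-dependent kinase inhibitor p57, encoded by *Cdkn1c*, is known for its part in that exit in cartilage.

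The promoters of both rule genes, and of 4 mitosis genes that are reported next, are shown because genes of G2 and M phase are known to share 2 short motifs. The CHR element, searched here as TTTGAA or TTCGAA, is a site of the DREAM and MuvB complexes. The CCAAT box is a site of the factor NF-Y. The sequences are RefSeq promoters of mouse build GRCm38.p6, read 5′ to 3′ on the strand of the gene and ending at the start annotated in RefSeq, and capitals mark each motif on either strand. *Top2a* is at chr11:99024190-99024439, *Mki67* at chr7:135716380-135716629, *Cdk1* at chr10:69352939-69353162, *Ccnb1* at chr13:100786571-100786736 and *Ccnb2* at chr9:70421555-70421804, all on the minus strand. *Plk1* is at chr7:122159185-122159434 on the plus strand. The windows hold 250 bases upstream, less 26 bases for *Cdk1* and 84 bases for *Ccnb1* at the downstream end that lie inside the gene as GENCODE annotates it.
Top2a: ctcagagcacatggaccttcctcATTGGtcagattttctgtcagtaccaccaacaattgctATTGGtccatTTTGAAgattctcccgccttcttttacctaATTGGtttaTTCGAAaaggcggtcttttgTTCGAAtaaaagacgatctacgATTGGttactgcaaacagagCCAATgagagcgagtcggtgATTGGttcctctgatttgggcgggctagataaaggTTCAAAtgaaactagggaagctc
Mki67: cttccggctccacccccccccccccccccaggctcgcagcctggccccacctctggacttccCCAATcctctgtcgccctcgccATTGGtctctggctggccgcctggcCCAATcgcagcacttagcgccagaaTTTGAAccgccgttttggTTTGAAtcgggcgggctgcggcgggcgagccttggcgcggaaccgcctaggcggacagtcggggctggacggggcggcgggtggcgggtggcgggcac
Cdk1: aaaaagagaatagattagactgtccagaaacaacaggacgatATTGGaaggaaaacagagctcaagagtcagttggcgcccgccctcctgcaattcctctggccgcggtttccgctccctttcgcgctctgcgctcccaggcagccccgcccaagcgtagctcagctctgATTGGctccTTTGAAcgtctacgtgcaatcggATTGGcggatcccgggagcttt
Ccnb1: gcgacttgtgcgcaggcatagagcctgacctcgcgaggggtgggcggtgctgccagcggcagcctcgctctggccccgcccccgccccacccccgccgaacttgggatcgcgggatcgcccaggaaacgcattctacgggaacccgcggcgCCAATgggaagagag
Ccnb2: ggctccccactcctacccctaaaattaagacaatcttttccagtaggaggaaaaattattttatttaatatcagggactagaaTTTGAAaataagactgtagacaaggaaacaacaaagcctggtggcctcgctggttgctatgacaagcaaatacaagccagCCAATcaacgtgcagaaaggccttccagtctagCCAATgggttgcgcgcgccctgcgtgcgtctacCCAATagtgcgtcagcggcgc
Plk1: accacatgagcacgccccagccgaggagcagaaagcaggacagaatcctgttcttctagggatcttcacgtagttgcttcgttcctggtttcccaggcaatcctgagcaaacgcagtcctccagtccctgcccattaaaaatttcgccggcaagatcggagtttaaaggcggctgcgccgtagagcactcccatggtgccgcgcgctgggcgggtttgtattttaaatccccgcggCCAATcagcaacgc

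The *Top2a* window held 6 CCAAT boxes, 2 copies of TTTGAA and 2 of TTCGAA, and the *Mki67* window held 3 CCAAT boxes and 2 copies of TTTGAA. *Cdk1* and *Ccnb2* held 3 CCAAT boxes and 1 TTTGAA each, whereas *Ccnb1* and *Plk1* held 1 CCAAT box and neither TTTGAA nor TTCGAA. Other forms of the CHR were not searched, and the *Ccnb1* window lacks the 84 bases left out. Over all 27025 promoters of the table, searched in windows of 250 bases, 34.5% held a CCAAT, 10.5% held at least 2, and 17.4% held a CHR element in either form. Of the 50 mitosis genes of the list, 41 had a promoter in the table, and 75.6% of these held a CCAAT, 48.8% at least 2 and 36.6% a CHR element. Among 30 of the 42 DNA replication genes the shares were 63.3%, 33.3% and 20%, and among 16 of the 22 chondrocyte genes they were 31.2%, 0.0% and 12.5%. TTCGAA reads the same on both strands and was counted once, and no matches overlap in the 6 windows shown. These matches describe letters in a window and were not tested as sites.

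In both Day 7 libraries about 1 cell in 10 was dividing. The share was 10.5% in replicate A (exact binomial 95% interval 9.89% to 11.1%) and 9.1% in replicate B (8.53% to 9.7%), and at Day 10 it was 9.4% and 10.1%. At Day 2 it was higher, 31.1% in A and 21.1% in B. Because the rule counts UMIs, deep cells reach it more easily, so each cell was also thinned to 3000 UMIs at random and called dividing at 2 or more. After thinning, the Day 7 shares were 10.3% and 9.12%. Day 2 gave 28.0% and 35.6%, and Day 10 gave 7.35% and 7.89%. The order of Day 7 and Day 10 depended on how cells were counted. The 2 days overlapped as counted, both Day 7 libraries lay above both Day 10 libraries after thinning, and with the cell limits of the study both Day 7 libraries (7.39% and 7.02%) lay below both of Day 10 (8% and 8.77%). The order of the Day 2 replicates turned with thinning. Among Day 2 cells of 3000 to 10000 UMIs the share was 4.25% (A) and 3.53% (B) as counted, and 13.2% and 41.5% after thinning. The shares were not tested between days, since an exact two-sided permutation test of 2 libraries against 2 cannot give a p below 0.333, and intervals cover counting error only.

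**Figure D1:**
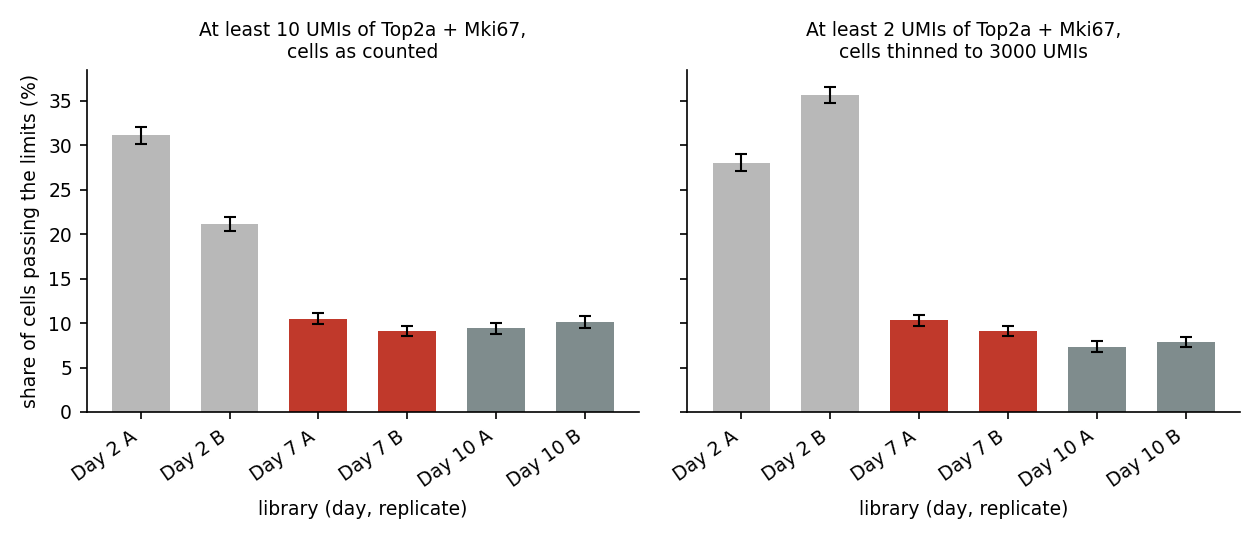
Bars give the share of cells passing the limits that were dividing (percent, y axis) in each of the 6 libraries, as counted at 10 or more UMIs of Top2a and Mki67 (left) and after thinning to 3000 UMIs at 2 or more (right), with exact binomial 95% intervals. Day 7 stood at 10.5% and 9.1% as counted, below Day 2 in both panels.

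Dividing cells were the deeper cells of each library. Their median was 33434 UMIs and 5552 genes in replicate A and 36976 UMIs and 5799 genes in B, against 17006 UMIs and 3736 genes, and 15167 UMIs and 3499.5 genes, in zero-UMI cells. Of the dividing cells, 36.1% and 42.2% had more than 40000 UMIs, against 9.7% and 8.47% of zero-UMI cells. The share called dividing was 4.39% and 2.07% among cells of 3000 to 10000 UMIs and 26.7% and 28.7% among cells above 40000. After thinning the rise was smaller, from 9.43% and 7.24% to 19.0% and 19.1%. No doublets were removed, and the part that depth has in the results was not tested. The main lists are therefore given a second time for cells of 10000 to 30000 UMIs in both classes, called the depth window here (294 and 246 dividing cells, 2400 and 2455 zero-UMI cells). The window narrows the depth gap without closing it, since its dividing cells held a mean of 21003 and 21164 UMIs and its zero-UMI cells 19764 and 19488.

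The values that chose the cells are given as a description. A dividing cell held a median of 20 (A) and 23 (B) UMIs of *Top2a* and 11 of *Mki67* in both replicates, and the sum of both genes had a median of 31 and 32 and reached 200 and 187. Only 3 and 5 dividing cells lacked *Top2a*, and 4 and 7 lacked *Mki67*. At the threshold itself, 35 and 36 cells held exactly 10 UMIs and were kept, and 30 and 55 held 9 and were not. The gene limit left out 232 and 179 further barcodes with at least 10 UMIs. Replicates A and B shared 22 barcode sequences among passing cells, and 1 among dividing cells.

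For every other gene, UMIs were summed over the cells of a class in each library, and the sums were compared with the quasi-likelihood test of edgeR, with the library as a block. Levels are given as CPM, UMIs scaled to 1000000 UMIs of the sum with TMM factors. A gene was called at a Benjamini-Hochberg adjusted p under 0.05, and n was 2 libraries a day. Of 17306 genes tested at Day 7, 4764 (27.5%) were higher and 4759 (27.5%) were lower in dividing cells, so a list needs to be read against a background of 27.5% in each direction. In the depth window 3086 (19.2%) of 16036 genes were higher and 2829 (17.6%) lower, which is the background for each count given there. *Top2a* and *Mki67* were removed before the test. The classes were nevertheless drawn from counts of the same cells, so the cycle genes that follow check the label rather than stand as independent evidence.

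Genes of mitosis were higher throughout. All 50 genes of the mitosis list were called higher, with a median log2 fold change of 5.52, and their summed level was 7893 and 8539 CPM in dividing cells against 348 and 339 CPM in zero-UMI cells. *Cdk1*, the kinase that starts mitosis, stood at 321 and 362 CPM in the dividing cells of A and B and at 18 and 18.1 CPM in zero-UMI cells. This is a log2 fold change of 4.24 ± 0.08 (SE). Its partner cyclin *Ccnb1* stood at 114 and 125 against 3.26 and 3.55 CPM, and *Ccnb2* at 113 and 127 against 5.26 and 4.61 CPM. The log2 fold change was 5.13 ± 0.11 for *Ccnb1* and 4.6 ± 0.07 for *Ccnb2*. *Plk1*, a kinase of spindle assembly, stood at 108 and 115 against 1.81 and 1.49 CPM. The widest gap of the list was that of *Nusap1*, which binds spindle microtubules, with 287 and 325 CPM against 2.45 and 1.62 CPM (log2 fold change 7.23 ± 0.18). The smallest was that of the checkpoint gene *Bub3*, at 175 and 199 against 68.1 and 69.7 CPM (1.44 ± 0.04). For each of these genes both dividing sums lay above both zero-UMI sums.

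DNA replication genes were higher by a smaller factor, since 41 of 42 were called higher with a median log2 fold change of 2.72. *Tk1*, a thymidine kinase that supplies DNA building blocks, stood at 118 CPM in dividing cells of A and 118 CPM in B against 1.8 and 1.52 CPM (6.15 ± 0.11). *Mcm5*, a subunit of the replicative helicase, stood at 57.6 and 56.7 against 6.63 and 6.05 CPM (3.17 ± 0.05). *Pcna*, the sliding clamp of the DNA polymerases, was present in both classes, at 142 and 139 against 41.3 and 42 CPM (1.75 ± 0.03). The gene that was not called was *Ung*, which removes uracil from DNA, at 15 and 13.8 against 14.5 and 12.9 CPM (edgeR adjusted p = 0.245). Both lists had the same counts in the depth window, with 50 of 50 mitosis genes and 41 of 42 replication genes called higher and medians of 5.87 and 2.74.

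**Figure D2:**
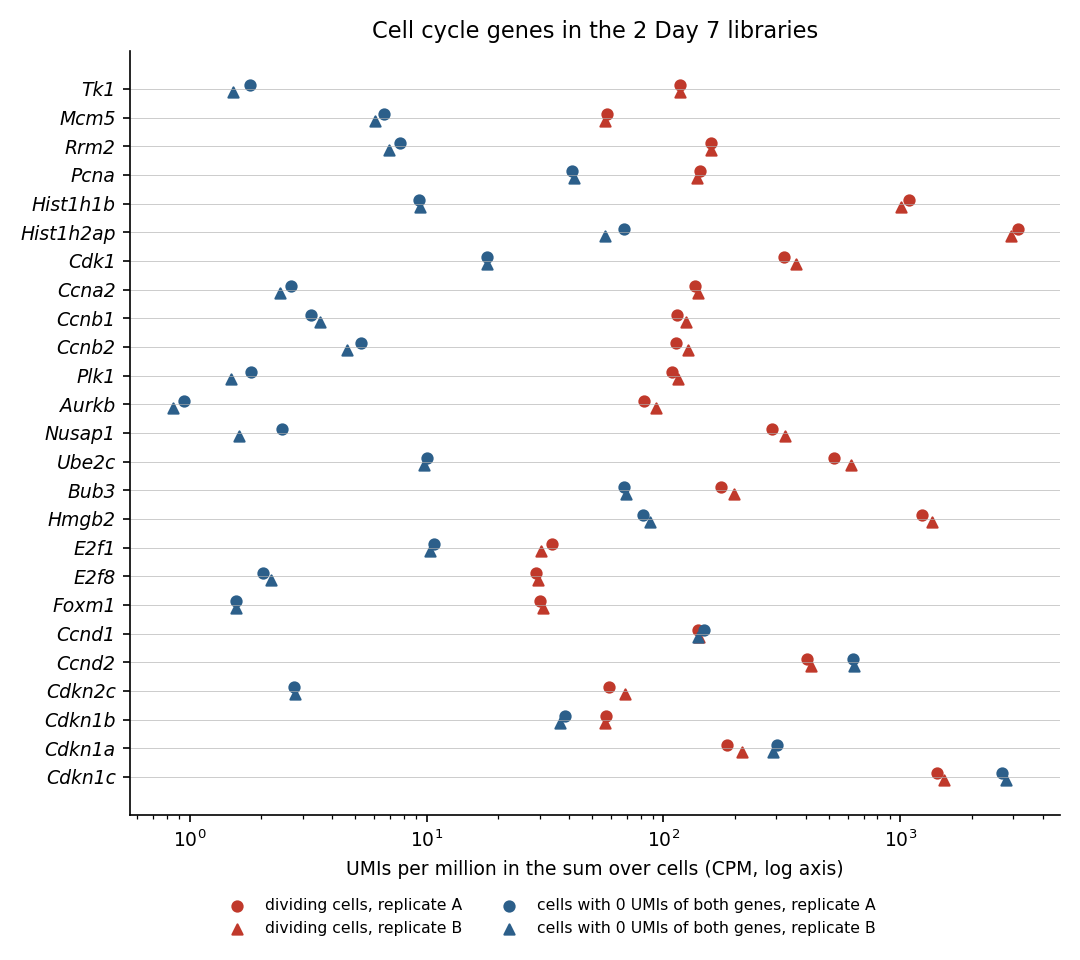
Each row is a cell cycle gene and each point its level (CPM, log axis) in 1 class of 1 Day 7 library, with dividing cells in red, zero-UMI cells in blue, circles for replicate A and triangles for B. The classes are apart for every gene but Ccnd1, and Ccnd2, Cdkn1a and Cdkn1c are lower in dividing cells.

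Histone transcripts, which are made in S phase with the new DNA, were mostly higher in dividing cells. Of 62 replication-dependent histone genes tested, 58 were called higher and 2 lower (median 3.25). *Hist1h1b* reached 1084 and 1007 CPM in dividing cells against 9.26 and 9.37 CPM (6.81 ± 0.12). *Hist1h2ap* reached 3123 and 2926 CPM against 68.2 and 56.8 CPM. The 2 lower genes were *Hist1h2bc*, at 52.5 and 49.1 against 89.2 and 85.4 CPM (-0.78 ± 0.04), and *Hist3h2a* (-0.43 ± 0.07, and -0.22 in the depth window with an edgeR adjusted p of 0.23). These genes are near copies of each other, so how reads were shared among them is uncertain for single members. Transcripts of this class also typically lack the poly(A) tail, which this kit uses for capture, so their levels cannot be set against those of other genes.

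All 14 genes of the list of histone variants and chromatin proteins were called higher, with a median of 1.87. The chromatin protein gene *Hmgb2* stood at 1232 and 1365 against 82.2 and 87.9 CPM (3.93 ± 0.03). *Ezh2*, the enzyme that methylates histone H3 at lysine 27, stood at 149 and 150.1 against 34.6 and 33.7 CPM. *H3f3b*, a histone H3.3 gene that is used outside S phase too, had the smallest difference of the list (0.57 ± 0.02).

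Within the dividing cells, the balance of replication and mitosis transcripts varied from cell to cell. Among 3000 thinned UMIs, a dividing cell held a median of 9 (A) and 8 (B) UMIs of the replication list and 19 and 22 of the mitosis list, whereas a zero-UMI cell held a median of 1 of each. More mitosis than replication UMIs were found in 71.4% and 76.2% of dividing cells, and more replication UMIs in 27.2% and 21.9%. At Day 10 the first share was 74.3% and 74.8%. The lists differ in length and level, so these shares order cells and do not count cells in each phase. Both rule genes peak late in the cycle, so cells of G1 phase can be missed by the rule.

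Regulators of the cycle, a list that holds genes that promote it and genes that restrain it, went in both directions. Of 19 tested, 12 were called higher and 3 lower. Among the higher ones was *E2f7*, of the E2F family, at 26.3 and 24.5 against 0.864 and 0.856 CPM (4.88 ± 0.07). Another was *Foxm1*, a transcription factor of mitosis genes, at 30.1 and 30.9 against 1.58 and 1.57 CPM (4.28 ± 0.08). None of the 3 D-type cyclins, which relay growth signals in G1 phase, was called higher by edgeR. *Ccnd2* was lower, at 404 and 418 against 631 and 636 CPM (-0.63 ± 0.02), and *Ccnd3* was lower by a little (-0.20 ± 0.03). *Ccnd1* stood at 140.3 and 141 against 149 and 140.3 CPM, and the groups overlapped (-0.04 ± 0.03, edgeR adjusted p = 0.336). The growth factor response gene *Myc* was lower too (-0.31 ± 0.07). In the depth window 10 of the 19 were called higher and 3 lower, and the median was 0.61 against 0.30 over all cells.

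Inhibitors of cyclin-dependent kinases went in both directions. *Cdkn1c* was the most abundant of them, at 1422 and 1529.8 CPM in dividing cells and 2699 and 2779 CPM in zero-UMI cells (-0.89 ± 0.03, edgeR adjusted p = 4.23e-10). At 3000 UMIs a *Cdkn1c* UMI was found in 66.8% and 66.7% of dividing cells and 81.7% and 80.5% of zero-UMI cells, but also in 62.5% and 25% of 16 and 28 cells outside the dividing class that carried macrophage genes, with exact 95% intervals of 35.4% to 84.8% and 10.7% to 44.9%. The share of dividing cells lay above this background interval in B and inside it in A. *Cdkn1a*, which encodes p21 and responds to DNA damage, stood at 185 and 215 against 301 and 291 CPM (-0.57 ± 0.05). *Cdkn1b* (p27) was higher at 57.4 and 56.8 against 38.3 and 36.6 CPM (0.61 ± 0.04). The widest gaps were those of *Cdkn2c* (p18) and *Cdkn2d* (p19), which encode INK4 inhibitors of cyclin D kinases. *Cdkn2c* stood at 58.9 and 68.6 against 2.76 and 2.78 CPM (4.52 ± 0.08). *Cdkn2d* stood at 83.1 and 91.7 against 15.2 and 15.3 CPM (2.51 ± 0.04). Of the 12 genes of this list 5 were called higher and 6 lower, and *Btg2*, an antiproliferative gene, was among the lower ones (-0.71 ± 0.04). *Gas1*, named for its expression in arrested cells, was lower over all cells (-0.31 ± 0.06, not called without replicate B) but higher in the depth window (0.35 ± 0.05). There 6 of the 12 were called higher and 5 lower, with a median of 0.31 against -0.13 over all cells.

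Outside the lists, the 10 called genes with the largest positive values (at least 10 CPM in a class, without overlap of the classes) were *Esco2*, *Depdc1a*, *Pbk*, *Ankle1*, *Mxd3*, *Ska1*, *Neil3*, *Cep55*, *Aunip* and *Nek2*. Their log2 fold changes lay between 6.3 and 7.03. *Esco2*, which joins sister chromatids after replication, stood at 83.4 CPM in A and 83.4 CPM in B, against 0.65 and 0.625 CPM. *Ska1*, a kinetochore protein gene, stood at 43.2 and 49.5 against 0.508 and 0.544 CPM, and *Cep55*, which acts when daughter cells separate, at 41.2 and 46.3 against 0.437 and 0.594 CPM. The 10 with the largest negative values were led by the muscle genes *Tnnc2* (-5.39 ± 0.87), *Myl1* (-3.91 ± 0.38) and *Tnni1* (-2.57 ± 0.21). In zero-UMI cells *Tnnc2* stood at 24.9 CPM in A and 3.36 CPM in B and *Myl1* at 24.1 and 3.98 CPM. Without replicate A *Tnnc2* was at -3.17 and no longer called (edgeR adjusted p = 0.131), and *Myl1* was at -2.29. The others were *Tcp11l2* (-1.85), *Lars2* (-1.44), *Chchd10* (-1.42), *Kdm7a* (-1.4), *Aldoc* (-1.37), *Cdsn* (-1.34) and *Cyb5r2* (-1.32). For *Lars2*, a mitochondrial leucyl-tRNA synthetase gene, the difference was 0.04 in the depth window.

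Dividing cells carried markers of several lineages, and cartilage genes were lower in them. Of 22 chondrocyte genes, 21 were called lower and 0 higher, with a median of -0.80, against the background of 27.5% lower. *Col2a1*, the main collagen of cartilage, stood at 5688 and 5799 CPM in dividing cells and 10336 and 9797 CPM in zero-UMI cells (-0.81 ± 0.06, edgeR adjusted p = 5.26e-07). The proteoglycan gene *Acan* stood at 683 and 711 against 1211 and 1148 CPM (-0.76 ± 0.08). *Sox9*, the transcription factor that specifies cartilage, stood at 207 and 226 against 331 and 330.0 CPM (-0.61 ± 0.03). Both dividing sums lay below both zero-UMI sums for each of them. Among further matrix genes *Comp* stood at 275 and 248 against 567 and 543 CPM (-1.09 ± 0.03) and the matrilin gene *Matn1* at 994 and 1038 against 1993 and 1919 CPM (-0.95 ± 0.06). The gene that was not called was *Matn3*, a matrilin of growth cartilage, at 110.0 and 119 against 118 and 116 CPM. Within the depth window again 21 of 22 were lower and 0 higher, with a median of -0.92. In a sum over cells, fewer cells of a type and less RNA per cell cannot be told apart.

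Cartilage transcripts were found in most dividing cells. At 3000 UMIs a *Col2a1* UMI was present in 87.1% and 80.4% of dividing cells, against 94.4% and 92.5% of zero-UMI cells. Background was taken from 16 and 28 cells outside the dividing class with at least 10 UMIs of 6 macrophage genes. The 6 genes were *Tyrobp*, *Fcer1g*, *C1qa*, *C1qb*, *C1qc* and *Trem2*, and such cells should lack *Col2a1*. Of them, 87.5% and 75% held a UMI at median depths of 29511.5 and 21924 UMIs. Free RNA and a second cell in the droplet cannot be told apart as its source, since no doublets were removed. The mean level was 5.0 and 2.5 *Col2a1* UMIs of 3000 in these cells. It was 15.8 and 16.5 in dividing cells at a threshold of 20 UMIs, and this difference was not tested. The exact 95% intervals of these background shares, 61.7% to 98.4% and 55.1% to 89.3%, cover the *Col2a1* share of dividing cells in both libraries, which cannot be read as a share of chondrocytes. *Acan* was present in 53% and 50.3% of dividing cells and 68.9% and 65.3% of zero-UMI cells, and in 62.5% (35.4% to 84.8%) and 17.9% (6.06% to 36.9%) of the macrophage-gene cells, so its share in dividing cells lay inside the background interval in A and above it in B.

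Genes of chondrocytes that leave the cycle were mostly lower. Of 12 prehypertrophic and hypertrophic genes, 7 were called lower and 2 higher (median -0.44). *Ihh*, the signal that prehypertrophic cells send to dividing ones, stood at 8.01 and 10.8 against 18.2 and 18.6 CPM (-0.98 ± 0.12). *Panx3*, a channel gene of prehypertrophic cells, stood at 25.7 and 22.5 against 56.2 and 51.3 CPM (-1.16 ± 0.04). *Col10a1*, the collagen of hypertrophic cells, stood at 35.3 and 30 against 32.9 and 28.6 CPM and was not called. Within the depth window 3 of the 12 were called lower and 0 higher (median -0.17), with *Ihh* at -1.17 and *Panx3* at -1.14 still among the lower. *Spp1*, the gene of osteopontin, was higher over all cells (0.43 ± 0.07) and had the opposite sign in the window (-0.34, edgeR adjusted p = 0.144). Of 8 bone genes 2 were called higher and 3 lower, and *Runx2*, the osteoblast factor, was slightly lower (-0.28 ± 0.04). In the window 2 were higher and 0 lower, and *Runx2* was at -0.20 (edgeR adjusted p = 0.0888). *Dmp1*, an osteocyte matrix gene, was higher but rare, at 7.14 and 5.41 against 2.68 and 2.18 CPM.

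Genes of the contractile list were higher in dividing cells, and the difference was smaller in the depth window. The list holds genes shared by smooth muscle, myofibroblasts and stroma, together with *Igfbp7*, *Wnt10a*, *Stmn2* and *S100a6*. All are named contractile genes here for short. The study used *Cnn1*, *Igfbp7*, *Wnt10a* and *Stmn2* to annotate osteoblasts, and *Tagln* and *S100a6* to annotate stromal cells. All 11 genes of the list were called higher over all cells, with a median of 0.90. *Acta2*, smooth muscle actin, stood at 2100.0 and 2300.5 CPM in dividing cells and 1076 and 1116 CPM in zero-UMI cells (1.0 ± 0.05). *Tagln*, an actin-binding protein gene, stood at 1871 and 1979 against 975 and 952 CPM (1.0 ± 0.05). *Actg2* stood at 132 and 142 against 41.1 and 49.8 CPM (1.6 ± 0.08). In the window 2 of the 11 were called higher and 0 lower, with a median of 0.26 and against the window's background of 19.2% higher, and *Acta2* was at 0.29 (edgeR adjusted p = 0.0694), *Actg2* at 0.37 and *Tagln* at -0.04. *Cnn1*, calponin, stayed higher (0.87 ± 0.06 over all cells and 0.56 ± 0.13 in the window). With cells above 40000 UMIs left out, 10 of the 11 were called and the median was 0.556.

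**Figure D3:**
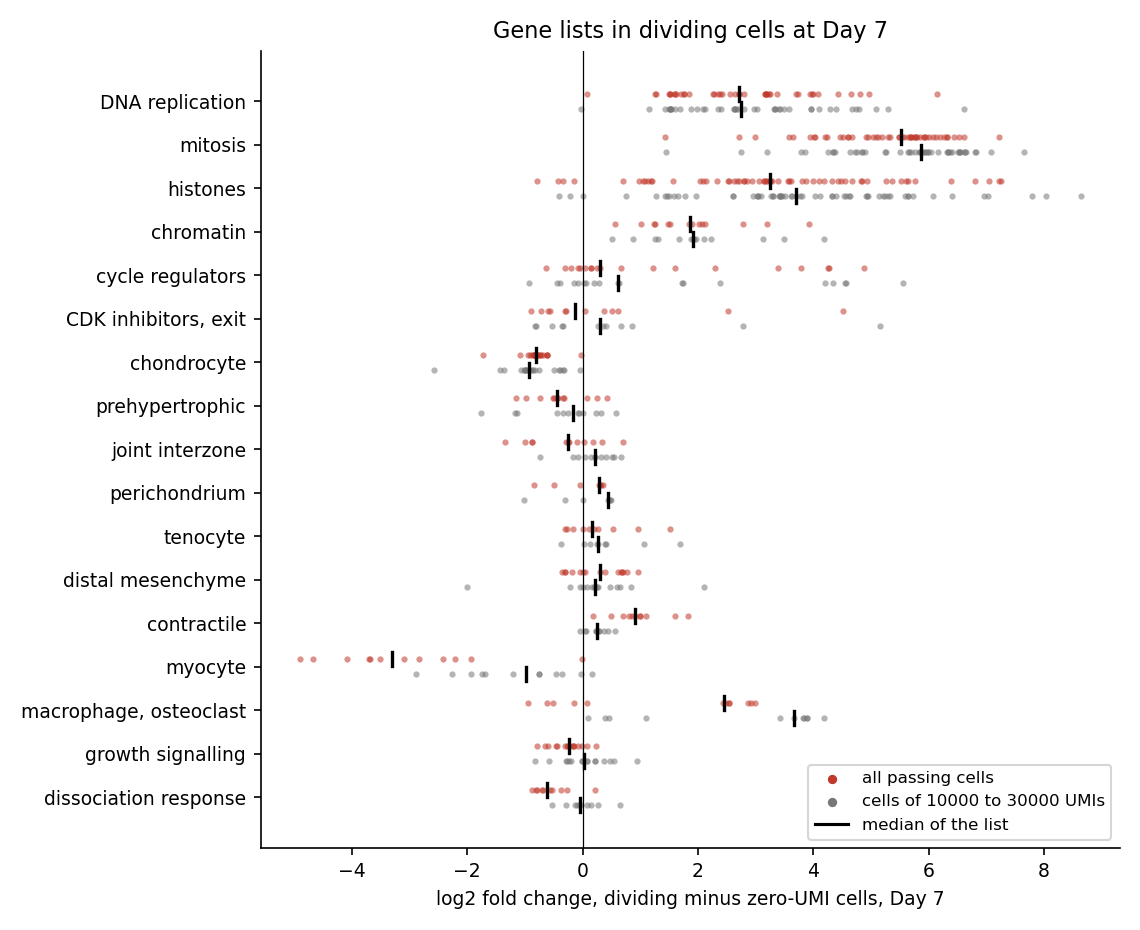
Each point is the log2 fold change of 1 gene of a list between dividing and zero-UMI cells at Day 7 (x axis), in red over all cells and in grey over cells of 10000 to 30000 UMIs, and black bars are the list medians. Mitosis and replication genes have medians of 5.52 and 2.72 over all cells and 5.87 and 2.74 in the depth window, the chondrocyte genes stay below 0, and the medians of the contractile, growth and dissociation genes move towards 0 in the depth window.

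Cells were also sorted by what they carried. Each cell was thinned to 3000 UMIs, and the share of dividing cells was counted in bins of its chondrocyte UMIs. With 0 to 29 chondrocyte UMIs 15.3% (A) and 12.4% (B) of cells were dividing, with 60 to 119 it was 8.09% and 7.2%, and with 200 or more 3.54% and 3.57%. Among cells of the depth window the share was 10.5% and 9.52% in the lowest bin and 3.03% and 2.69% in the highest. For 5 contractile genes (*Cnn1*, *Tagln*, *Acta2*, *Actg2* and *Myl9*) the share over all cells was 7.8% and 6.32% at 0 to 2 UMIs and 23.0% and 21.5% at 30 or more. In the depth window it was 7.25% and 6.06% in the lowest bin, 10.1% and 7.59% at 10 to 29 UMIs and 6.31% and 11% at 30 or more, with no common order in both libraries.

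**Figure D4:**
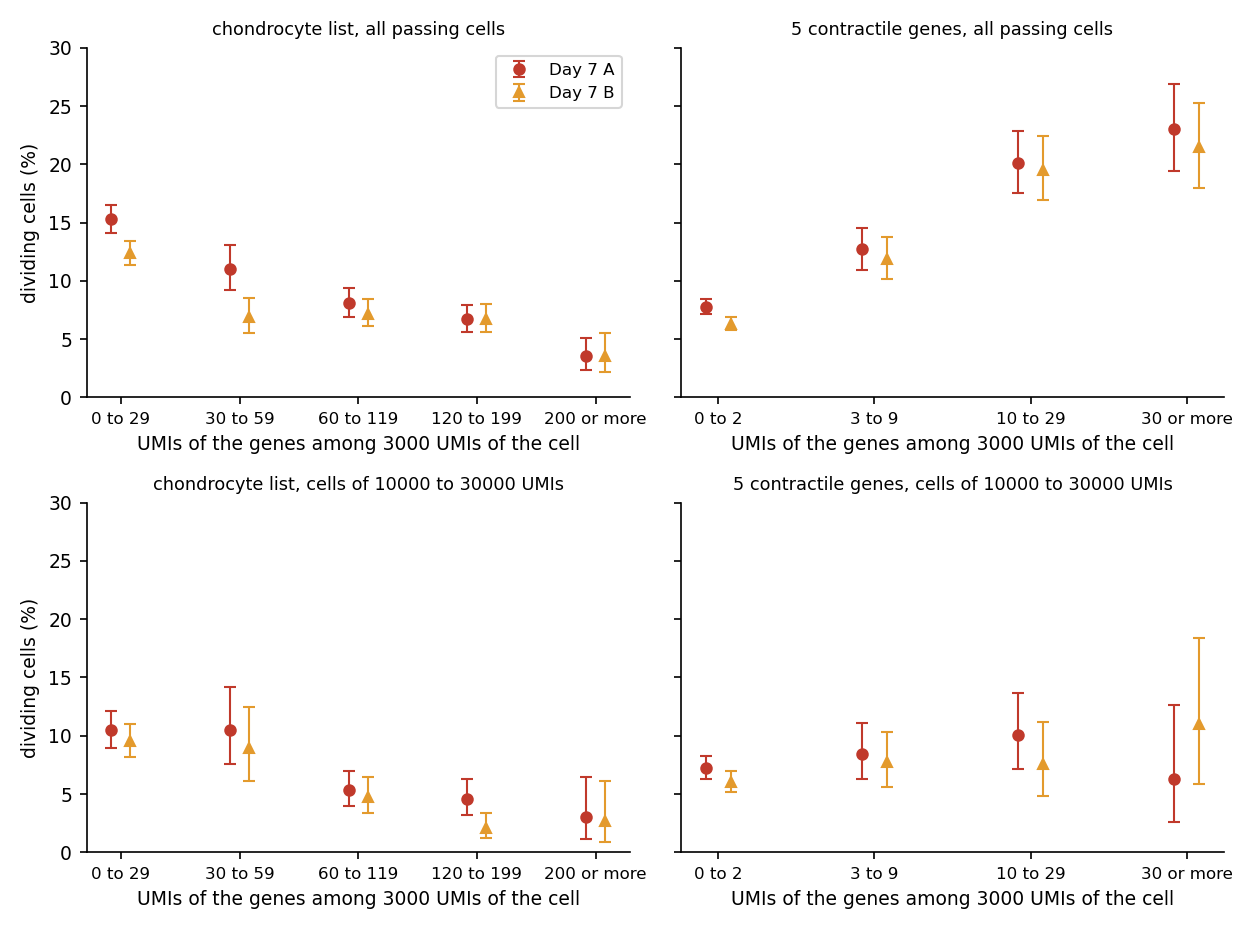
The y axis is the share of cells that were dividing (percent) and the x axis the UMIs of the chondrocyte list (left) or of 5 contractile genes (right) among 3000 thinned UMIs of each cell, for all cells (top) and for cells of 10000 to 30000 UMIs (bottom). Points are the Day 7 replicates A (red) and B (orange) with exact binomial 95% intervals. The share is lower in chondrocyte-rich cells in both rows and higher with more contractile UMIs in both libraries in the top row.

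By cut-offs on these scores that were chosen after seeing the data, dividing cells of all depths fell into 3 kinds of similar size. A cell with at least 60 chondrocyte UMIs of 3000 is called chondrocyte-rich here, and one with at least 10 UMIs of the 5 contractile genes contractile-rich, which are ranges of a score and not cell types. Of the dividing cells, 31.4% (309 cells, A) and 30.4% (259, B) were chondrocyte-rich, 29.2% (287) and 30% (256) were contractile-rich, and 38.4% and 37.7% were neither. Zero-UMI cells were chondrocyte-rich in 52.2% and 45.8%, contractile-rich in 10.7% and 9.02% and neither in 36.2% and 44.2%. Cells that were both made up 1.02% and 1.88% of dividing cells and 0.887% and 1.0% of zero-UMI cells. Median depth followed the kind, with 32139 and 38352 UMIs in chondrocyte-rich, 43377 and 47755 in contractile-rich and 24780 and 26329.5 in the remaining dividing cells. Within 5 UMIs of the chondrocyte cut-off lay 13 and 6 of the chondrocyte-rich dividing cells, and within 1 UMI of the contractile cut-off 24 and 16 of the contractile-rich ones.

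Dividing and zero-UMI cells were then compared inside each kind. Among chondrocyte-rich cells 3011 (20.5%) of 14691 genes were called higher and 2684 (18.3%) lower, and among contractile-rich cells 2879 (21.4%) of 13432 were higher and 2296 (17.1%) lower. Mitosis genes had medians of 5.45 and 5.28, with 50 of 50 genes called higher in each kind. Replication medians were 2.60 and 2.94. *Cdkn1c* stood at 2984 and 3185 CPM in dividing and 3684 and 3877 CPM in zero-UMI chondrocyte-rich cells (-0.29 ± 0.04). In contractile-rich cells it stood at 265 and 252 against 433 and 418 CPM (-0.72 ± 0.04). *Ccnd1* was lower in dividing chondrocyte-rich cells (-0.26 ± 0.05) and higher in dividing contractile-rich cells (0.25 ± 0.04), although it was not called over all cells. *Ccnd2* (-0.50 and -0.68) and *Cdkn1a* (-0.54 and -0.64) were lower in both kinds. *Hmga2*, a chromatin gene of embryonic mesenchyme, was higher in both (0.52 and 0.24). Depth still differed within the kinds, which were not compared again in the depth window, as zero-UMI cells had medians of 19245 and 20423 UMIs when chondrocyte-rich and 30215.5 and 31423 when contractile-rich. The difference between the kinds was not tested, and the genes that set the cut-offs are not reported within them.

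Tendon, joint and perichondrium genes gave mixed differences. Of 10 tenocyte genes 6 were called higher and 1 lower (median 0.16). *Thbs4*, a thrombospondin of tendon, stood at 22.4 and 17.6 against 6.77 and 7.14 CPM (1.52 ± 0.09), and the tendon gene *Tnmd* at 23.4 and 33.5 against 13.5 and 15.5 CPM (0.96 ± 0.10). Both were also higher in the depth window, at 1.69 and 1.07. *Scx*, the tendon transcription factor, was higher over all cells (0.53 ± 0.03) and lower in the window (-0.37 ± 0.11). A *Tnmd* UMI was present in 4.88% and 5.39% of dividing cells at 3000 UMIs, against 2.83% and 2.58% of zero-UMI cells. In the macrophage-gene cells outside the dividing class the share was 6.25% and 3.57% (1 of 16 and 1 of 28 cells). The exact binomial intervals of these background shares were 0.158% to 30.2% and 0.0904% to 18.3%. With 1 cell in each library they are too wide to place the shares of dividing cells above or below this background.

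Among 12 joint interzone genes 3 were called higher and 7 lower over all cells, and 4 higher and 1 lower in the depth window. *Gdf5*, the growth factor that marks the joint, stood at 4.46 and 5.75 against 11.1 and 14.9 CPM (-1.34 ± 0.22), but its window value was -0.16 (edgeR adjusted p = 0.592). *Wnt4* was lower in both settings (-1.0 ± 0.06 and -0.74), and *Wnt16* was higher in both (0.69 ± 0.08 and 0.66). Of 6 articular genes 2 were called higher and 0 lower (median -0.15), and in the window 3 of 5 higher and 0 lower (0.56). *Cd44*, a hyaluronan receptor, was higher at 29.8 and 31.7 against 15 and 14.6 CPM (1.05 ± 0.09). *Prg4*, the lubricin gene, stood at 80.7 and 37.1 against 32.6 and 25.6 CPM (0.96 ± 0.30, edgeR adjusted p = 0.0192), and it was not called by DESeq2 (adjusted p = 0.129) or without replicate A (0.53, edgeR adjusted p = 0.352).

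Of 7 perichondrium genes 4 were called higher and 2 lower. *Col1a1*, the collagen of the fibrous sheath, was higher (0.29 ± 0.03, and 0.47 in the window), whereas the small proteoglycan genes *Dcn*, at 88.7 and 91.7 against 156 and 169 CPM (-0.85 ± 0.06), and *Lum* (-0.50 ± 0.05) were lower in both settings. Among 15 genes of distal and interdigital mesenchyme 7 were higher and 3 lower. With DESeq2, and likewise without the library block, 6 were called higher and 0 lower. *Prrx1*, a limb mesenchyme factor, stood at 304 and 303 against 198 and 184 CPM (0.67 ± 0.04). *Hmga2* stood at 139 and 147 against 74.9 and 71 CPM (0.97 ± 0.04). Within the window they were at 0.48 and 0.59, and 4 of the list were higher and 0 lower.

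Muscle genes were lower in dividing cells. Of 12 myocyte genes 11 were called lower and 0 higher (median -3.30), and their summed level was 38.4 and 49.0 CPM in dividing cells against 377 and 102 CPM in zero-UMI cells. *Actc1*, an actin of striated muscle, stood at 0.842 and 0.575 against 33.5 and 8.64 CPM, and *Ttn*, titin, at 0.249 and 0.812 against 13.7 and 13 CPM. The zero-UMI level rests on few cells: 22 cells of replicate A and 2 of B held at least 30 UMIs of *Myog*, *Ttn*, *Tnnt1*, *Actc1* and *Mylpf* together, and 1 and 0 of them were dividing. Without replicate A, 8 were called lower and 1 higher (median -2.00), and in the depth window 6 were lower and 0 higher (-0.98). Of 6 myogenic progenitor genes 0 were called higher and 2 lower, and in the window neither direction was called.

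Macrophage genes were higher in dividing cells. Of 12 macrophage and osteoclast genes 7 were called higher and 0 lower (median 2.46, and 3.67 in the depth window with 8 of 11 higher), and the list summed to 112 and 152 CPM against 42.8 and 60.8 CPM. *Tyrobp*, an adaptor of myeloid receptors, stood at 23 and 30.2 CPM in dividing cells and 3.0 and 6.32 CPM in zero-UMI cells (2.54 ± 0.13). *Csf1r*, the receptor of macrophage colony-stimulating factor, stood at 3.99 and 5.99 against 0.559 and 1.33 CPM (2.43 ± 0.17). The 7 higher over all cells were the macrophage genes of the list, and the osteoclast enzymes *Ctsk* (-0.15 ± 0.07) and *Acp5* (0.07 ± 0.17) were not called. The 8 called higher in the depth window therefore include a gene of the osteoclast part of the list. The study also states that *Tyrobp*, *Trem2* and the C1q genes serve as osteoclast markers too. These levels come from few cells as well, since 29 cells in A and 47 in B held at least 10 UMIs of the 6 macrophage genes (median depths 30592 and 25311 UMIs), of which 13 (44.8%, exact 95% interval 26.4% to 64.3%) and 19 (40.4%, 26.4% to 55.7%) were dividing. They made up a minor part of the dividing class, where a *Tyrobp* UMI was present in 1.32% and 2.23% at 3000 UMIs. In chondrocyte-rich dividing cells 7 of 10 tested genes of this list were called higher too (median 2.74), and in contractile-rich ones 0 of 9 were higher and 1 lower. Among the 309 (A) and 259 (B) chondrocyte-rich dividing cells, those carrying macrophage genes were not counted. No doublets were removed, so these calls are not shown to come from chondrocytes.

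Other cell types left little trace. Of 5 globin and erythroid genes, 4 had no UMI in either class at Day 7. Of 3 endothelial genes tested, *Kdr* was called higher, at 0.156 and 0.981 against 0.061 and 0.191 CPM (not called without replicate B, edgeR adjusted p = 0.302), while *Pecam1* stood at 0.218 and 0.474 against 0.559 and 0.554 CPM. Among 5 Schwann and neural genes 1 was higher and 3 lower, and the list summed to between 5.98 and 6.96 CPM in all 4 sums. With DESeq2 0 of them were called higher and 1 lower, and in the depth window 0 and 2. Among 5 epithelial genes the simple keratin genes *Krt8* (1.26 ± 0.16) and *Krt18* (1.11 ± 0.16) were higher, whereas the basal keratin genes *Krt5* and *Krt14* were lower from levels of 3.36 and 0.997, and 7.92 and 0.544 CPM. The calls of *Krt5* and *Krt14* were lost without replicate A (edgeR adjusted p = 0.374 and 0.0781) and with DESeq2 (adjusted p = 0.0863 and 0.064), and a *Krt14* UMI was seen in 9 and 17 zero-UMI cells. None of the 4 epithelial genes tested in the depth window was called at an adjusted p under 0.05 by edgeR.

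Growth signalling genes differed over all cells and in the depth window, and fewer stress genes were called in the window than over all cells. Of 16 growth signalling genes 2 were called higher and 11 lower (median -0.23), and 5 and 5 in the depth window (0.03). *Fgfr3*, a receptor that slows chondrocyte division, stood at 72.1 and 73.3 against 132 and 119.9 CPM (-0.79 ± 0.05), and remained lower in the window (-0.83). *Igf2*, an embryonic growth factor, stood at 1334 and 1379.6 against 2138 and 2109 CPM (-0.65 ± 0.03, and -0.29 in the window). *Pdgfra*, a growth factor receptor of mesenchyme, was lower over all cells (-0.16 ± 0.04, not called without replicate B) and higher in the window (0.54 ± 0.06). Of 10 genes that dissociation induces, 8 were lower and 0 higher over all cells (median -0.62), and 2 and 0 in the window (-0.04). *Fos* stood at 225 and 227 against 368 and 422 CPM (-0.80 ± 0.05) and was at -0.14 in the window (edgeR adjusted p = 0.0541).

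The contrast between dividing and zero-UMI cells was next compared between days, by the difference of the log2 fold changes in the same edgeR fit. Between Day 7 and Day 10, 736 genes (4.25%) had a higher value at Day 7 and 421 (2.43%) a lower one. Without the library block these counts were 133 and 42, in the depth window 204 (1.27%) and 34 (0.212%), and with any 1 library of these days left out 420 to 617 and 120 to 232. Between Day 7 and Day 2 the counts were 3029 (17.5%) and 1751 (10.1%), without the block 1727 and 648, in the depth window 1561 (9.73%) and 1068 (6.66%), and with any 1 library left out 2245 to 2494 and 984 to 1361. Both differences use the Day 7 sums and are therefore not independent of each other.

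The contrast in replication genes was wider at Day 7 than at Day 2, where zero-UMI cells held more of them. All 42 replication genes had a higher contrast at Day 7, and the list medians were 1.21 at Day 2, 2.72 at Day 7 and 3.13 at Day 10. *Mcm5* stood at 48.9 and 51.9 CPM in dividing cells at Day 2, near the 57.6 and 56.7 CPM of Day 7. In zero-UMI cells, however, it stood at 30.6 and 32.8 CPM at Day 2 and 6.63 and 6.05 CPM at Day 7, so the contrasts were 0.67 and 3.17 (difference 2.5 ± 0.06). Zero-UMI cells of Day 2 held a median of 5 replication UMIs of 3000 in both replicates, against 1 at Day 7, while dividing cells held 11 in both at Day 2 and 9 and 8 at Day 7. The depth window gave 41 of 42 genes higher. Mitosis genes had a higher contrast in 33 of 50 and a lower one in 1, and in the depth window in 22 and 1. Against Day 10, 0 replication genes were higher and 23 lower at Day 7, but 0 and 0 in the depth window.

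Cartilage genes were closer between the classes at Day 7 than at Day 10 over all cells. Of 22 chondrocyte genes 19 had a higher contrast at Day 7 than at Day 10 and 0 a lower one, and the medians were -0.52 at Day 2, -0.80 at Day 7 and -1.64 at Day 10. *Col2a1* stood at 1721 and 2032 CPM in dividing and 6726 and 6585 CPM in zero-UMI cells at Day 10, a log2 fold change of -1.83 that differed from Day 7 by 1.02 ± 0.08 (edgeR adjusted p = 7.71e-05). Chondrocyte-rich cells made up 8.15% and 8.29% of dividing cells at Day 10, against 31.4% and 30.4% at Day 7, and 29.6% and 28.5% of zero-UMI cells. Within the depth window, though, 0 of 22 genes differed in either direction (median 0.03), and the difference was -0.10 for *Col2a1* and -0.26 for *Acan*. Only 142 and 166 dividing cells of Day 10 lay in that window. The prehypertrophic gene *Ihh* had its widest gap at Day 10 (-2.87, difference 1.89 ± 0.19). Against Day 2, 9 chondrocyte genes had a lower contrast at Day 7 and 0 a higher one (median -0.20), and in the depth window 15 and 0 (-0.77). *Matn3* was higher in the dividing cells of Day 2 (1.31), level at Day 7 (-0.03) and lower at Day 10 (-1.24).

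Contractile genes had a higher contrast at Day 7 than on either other day over all cells, in 10 of 11 against Day 10 and 9 of 11 against Day 2. The medians were 0.37, 0.90 and 0.30 from Day 2 to Day 10. *Actg2* stood at 161 and 139 CPM in dividing and 119.995 and 138 CPM in zero-UMI cells of Day 10, a narrower gap than at Day 7 (difference 1.38 ± 0.11). In the depth window 2 of 11 were higher against Day 10 and 7 of 11 against Day 2, and *Actg2* was at -0.80 against Day 10.

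*Cdkn1c* had contrasts of -0.64, -0.89 and -1.65 from Day 2 to Day 10. Its level in dividing cells was 1648 and 1449 CPM at Day 2 and 364 and 376 CPM at Day 10. Macrophage genes turned in direction between Day 2 and Day 7, with medians of -2.40, 2.46 and 1.59, and 7 of 12 were higher at Day 7 than at Day 2. *Tyrobp* stood at 1.62 and 0.679 CPM in dividing and 9.81 and 6.8 CPM in zero-UMI cells of Day 2, where 3 of 21 and 3 of 13 macrophage-gene cells were dividing. At Day 10, 28 of 128 and 52 of 177 such cells were dividing. Histones had a higher contrast at Day 7 than at Day 10 in 31 of 62 genes and a lower one in 0, and in the depth window in 33 of 61 and 0. *Hist1h1c*, a linker histone gene, stood at 118 and 112 CPM in dividing cells at Day 7 and 76.7 and 74.8 CPM at Day 10, against 93.9 and 102 CPM in the zero-UMI cells of Day 10 (difference 1.42 ± 0.06).

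**Figure D5:**
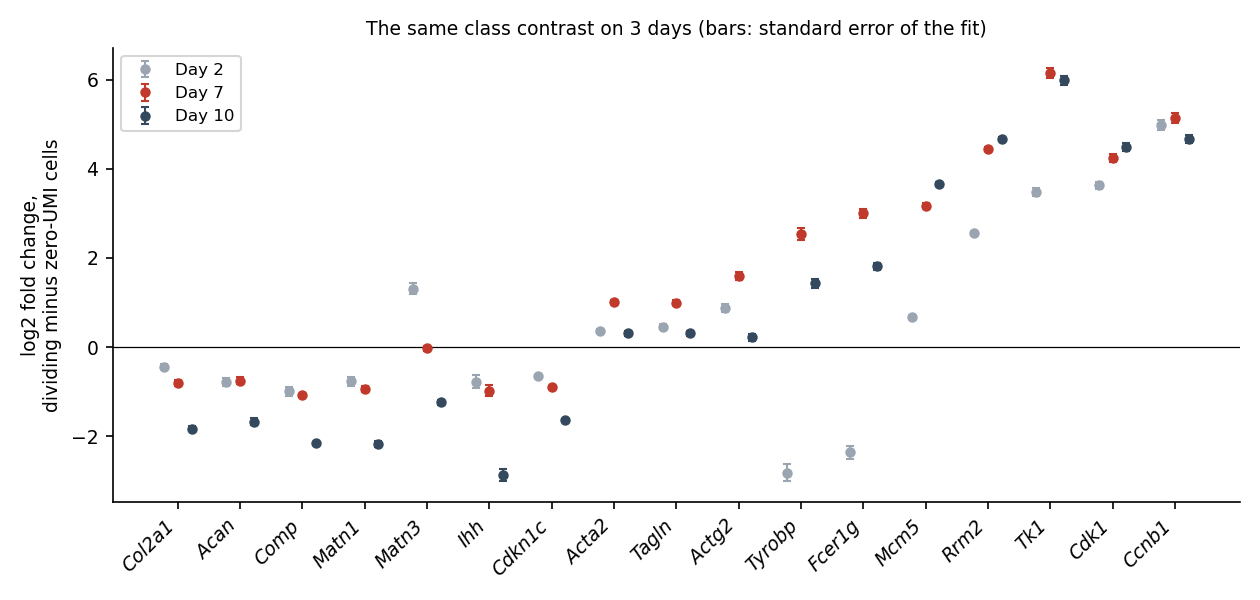
Points give the log2 fold change between dividing and zero-UMI cells (y axis) for named genes (x axis) at Day 2 (grey), Day 7 (red) and Day 10 (dark blue), with bars for the standard error of the fit. Over all cells the cartilage genes are lowest at Day 10 and the contractile genes highest at Day 7, Tyrobp and Fcer1g change sign after Day 2, and Mcm5 has its smallest value at Day 2.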

How the data were processed

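The 6 single-cell libraries were prepared with the 10x Genomics 3′ v3.1 kit. Per the labels, the authors aligned reads to GRCm38 (mm10) and counted UMIs with Cell Ranger 6.1.2 and STAR, and later filtered and clustered the cells with Seurat 4.1.0. The deposited matrices hold these raw UMI counts for 32286 features before that filter, and 0 columns belonged to samples outside the series. The clusters of the authors were not used here. Cells with 2 nuclei or 2 cells in a droplet were not removed, and no doublet caller was run.

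Cells were kept and classed as described above (at least 3000 UMIs, at most 7500 genes, at most 25% mitochondrial UMIs). The sums over dividing and zero-UMI cells of each library (12 sums of 31388362 to 149650427 UMIs) were fitted with edgeR 4.0.16 in R 4.3.3 (filterByExpr, TMM factors of 0.9103 to 1.149, quasi-likelihood test, Benjamini-Hochberg adjustment over 17306 genes), with the library as a block and 1 class effect per day. It left 3 residual degrees of freedom beside 7.459 from the prior, at a common dispersion (biological coefficient of variation) of 0.0315. Both classes of a library come from the same culture, and their deviations from the class means had a Pearson correlation of 0.213 over 7889 genes. The n is 2 cultures a day. With the library as a block, p-values rest on how the class difference varied between libraries, and the 12 sums of all days share the estimate of this spread. The kinds of cells rich in chondrocyte or contractile UMIs were fitted in the same way on the 8 sums of Day 7 and Day 10, with cut-offs chosen after seeing the data. Shares have exact binomial 95% intervals, which cover counting error only. The script for the tests was checked on simulated data.

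Members and gene lists were chosen with earlier results of these data known. Genes outside the lists were named as the 10 largest changes each way at Day 7 and the 5 largest each way between days, among called genes of at least 10 CPM whose classes did not overlap, without mitochondrial and ribosomal genes. Alternatives were DESeq2 1.42.0, RLE scaling, no filter, no block, thresholds of 5 and 20 UMIs, other depth limits, other reference cells, the cell limits of the study, Day 7 sums alone and single libraries left out. Python 3.11.15, numpy 2.4.6, pandas 2.3.3 and scipy 1.17.1 were also used.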

Additional observations from a re-analysis of the deposited data

Results flagged for a closer look

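Each result here is a difference between days in the contrast of dividing and zero-UMI cells that passed the edgeR test of the difference itself at an adjusted p under 0.05, with 2 libraries a day. Values are log2 differences, and a positive one means a higher contrast at Day 7. All these differences share the Day 7 libraries.

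Against Day 10, 736 genes were higher and 421 lower, and in the depth window 204 (1.27%) and 34 (0.212%) of 16036. Of 22 chondrocyte genes 19 were higher and 0 lower, with *Col2a1* at 1.02, *Acan* at 0.92, *Comp* at 1.08, *Matn1* at 1.23 and *Matn3* at 1.21. So were *Ihh* at 1.89 and *Col10a1* at 1.34 (0.76 without Day 10 replicate A), and the inhibitor gene *Cdkn1c* at 0.75. Among contractile genes *Actg2* differed by 1.38, *Acta2* by 0.70 and *Tagln* by 0.69. In the depth window 0 of 22 chondrocyte and 2 of 11 contractile genes differed from Day 10, and what part depth has in these differences was not tested further. The histone genes *Hist1h1c* and *Hist1h2bc* differed by 1.42 and 0.67. The E2F factor gene *E2f8* (-1.41) and the replication genes *Mcm2* (-0.33) and *Mcm5* (-0.49) were lower, but in the window none of the 3 was called by edgeR and 0 of 42 replication genes differed. The myeloid genes *Tyrobp* (1.11), *Fcer1g* (1.19) and, outside the lists, *Lyz2* (1.76) were higher. The other leading genes outside the lists were *Fxyd3* (1.69), *Sgms2* (1.54), *Ankrd1* (1.41) and *Foxa3* (1.38) above 0, and *Tnni1* (-1.76), *Prr11* (-1.16), *Rad54l* (-1.12), *Scara3* (-0.85) and *Egr3* (-0.82) below. In the window *Fxyd3* (-0.24), *Ankrd1* (-1.07), *Foxa3* (-0.085) and *Tnni1* (0.28) had the opposite sign and were not called, and of these leading genes *Sgms2* alone was still called there (1.38). With single libraries left out the edgeR call was lost for *Col10a1* (without either library of Day 7), *Mcm2* (without either library of Day 10 or replicate A of Day 7) and *Tnni1* (without replicate A of either day).

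Against Day 2, 3029 genes were higher and 1751 lower, and in the depth window 1561 (9.73%) and 1068 (6.66%) of 16036. All 42 replication genes and 33 of 50 mitosis genes were higher (41 and 22 in the depth window). Of the cycle and histone genes named, *Mcm5* was at 2.5, *Rrm2* at 1.88, *Tk1* at 2.66, *Hist1h1b* at 2.51 and *E2f7* at 2.5. Of 22 chondrocyte genes 9 were lower and 0 higher (15 and 0 in the window), with *Matn3* at -1.34 and *Col2a1* at -0.36, and *Actg2* was higher at 0.72. Among myeloid genes *Tyrobp* was at 5.37, *Fcer1g* at 5.36, *Lyz2* at 6.95, *Cxcl2* at 4.17 ± 0.80 and *Pf4* at 3.4 ± 0.75. *Lyz2* was rare at Day 2, at 0.286 (A) and 0.0831 (B) CPM in dividing and 3.51 and 0.283 CPM in zero-UMI cells. The last pair of these genes was rare there too. *Cxcl2* stood at 0.646 and 0.651 CPM in dividing and 2.38 and 0.424 CPM in zero-UMI cells. *Pf4* stood at 0.265 and 0.0 against 0.3 and 0.0202 CPM. Without Day 2 replicate A neither was called by edgeR (2.35, adjusted p = 0.375, and 6.84, adjusted p = 0.356), nor was *Col2a1* (-0.24, adjusted p = 0.0708). The remaining leading genes were *Fxyd2* (2.59) and *Stmn1* (2.25) above 0, and *Ppp1r1b* (-2.49), *Pcp4* (-1.96), *Smpd3* (-1.85), *Camk4* (-1.76) and *Steap1* (-1.41) below. Like *Lyz2*, *Cxcl2* and *Pf4*, the genes *Ppp1r1b* and *Smpd3* were rare at Day 2. There *Ppp1r1b* stood at 0.159 and 0.318 CPM in dividing and 0.0856 and 0.0605 CPM in zero-UMI cells, and *Smpd3* at 0.392 and 0.415 against 0.185 and 0.262 CPM.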

How the results depend on the processing

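The Day 7 contrast of the named mitosis, replication and chondrocyte genes kept its direction under every alternative run here, except for *Matn3* and *Ung*. *Matn3* was not called over all cells and stood at 0.044 without Day 7 replicate A. *Ung* was not called over all cells (0.077) or in the depth window (-0.022). It was called lower at a threshold of 20 UMIs (-0.41, edgeR adjusted p = 0.000883) and against cells with 1 to 9 UMIs (-0.39, edgeR adjusted p = 0.00317). Of 24 reversals of single genes, 16 came with the depth window and 4 with cells above 40000 UMIs left out. In cells of 10000 to 30000 UMIs, 3086 genes were higher and 2829 lower at Day 7, where fewer cells were tested. There the log2 fold change reversed for *Gas1* (0.35), *Spp1* (-0.34), *Scx* (-0.37), *Tagln* (-0.044), *Myod1* (1.29), *Krt5* (0.57), *Krt18* (-0.10), *Pdgfra* (0.54) and *Lars2* (0.035). With cells above 40000 UMIs left out it reversed for *Spp1* (-0.024), *Myod1* (0.065) and *Pdgfra* (0.21), and for *Des*, not called over both libraries (-0.0085), it was called at 0.80 without Day 7 replicate A and at -0.76 without replicate B (edgeR). The cause was not tested. Of the differences from Day 10, those of *Col2a1* (-0.10), *Acan* (-0.26), *Actg2* (-0.80), *Fxyd3* (-0.24), *Ankrd1* (-1.07), *Foxa3* (-0.085) and *Tnni1* (0.28) reversed in the depth window, that of *Tnni1* also without cells above 40000 UMIs (0.18), and that of *Prr11* against cells with 1 to 9 UMIs (0.041). No other called gene named here reversed.

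Counts of genes that differed between days moved with the processing. Without the pairing by library 20 results of named genes lost their call and 151 did not change, counted over the Day 7 contrast and both differences between days. For the 736 higher and 421 lower against Day 10, no replicate block gave 133 and 42. DESeq2 gave 141 lower, no filter on low counts 1600 higher, the depth window 204 and 34, leaving out cells above 40000 UMIs 93 lower, reference cells with 1 to 9 UMIs 224 and 52, and the cell limits of the study 463 and 239. Leaving out 1 library of Day 7 or Day 10 gave 420 to 617 higher and 120 to 232 lower. For the 3029 and 1751 against Day 2, DESeq2 gave 1760 and 1100, no replicate block 1727 and 648, the depth window 1561 and 1068, and leaving out 1 library 2245 to 2494 and 984 to 1361, the lowest without Day 2 replicate A.

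The share of dividing cells follows its threshold. For Day 2 A and B, Day 7 A and B and Day 10 A and B in that order, it was 37.6%, 32.7%, 13.1%, 12%, 12.2% and 13.3% at 5 UMIs, and 24.3%, 15.7%, 7.41%, 6.66%, 6.49% and 7.23% at 20 UMIs. With the cell limits of the study it was 29.4%, 12.5%, 7.39%, 7.02%, 8% and 8.77%, which places Day 7 below Day 10, and without cells above 40000 UMIs 26.8%, 16.7%, 7.82%, 6.07%, 5.9% and 6.2%. The thinned shares, outside the main interval at Day 2 (28% and 35.6%) and Day 10 (7.35% and 7.89%), stand in the report. Of marker shares in the dividing cells of Day 7 A and B, cells as counted gave 99.9% and 100% for *Col2a1*, 86.7% and 83.6% for *Acan*, 86.1% and 88.2% for *Acta2*, 53.3% and 58.7% for *Cnn1* and 15.7% and 19.2% for *Tnmd*. As background, macrophage-gene cells outside the class gave, as counted, 100% and 100% for *Col2a1*, 87.5% and 57.1% for *Acan*, 75% and 71.4% for *Acta2*, 31.2% and 25% for *Cnn1* and 25% and 14.3% for *Tnmd*, and thinned 18.8% and 28.6% for *Acta2* and 0% and 14.3% for *Cnn1*. Without cells above 40000 UMIs the thinned shares were 91.9% and 85.6% for *Col2a1*, 58.6% for *Acan* in A, 50% and 45% for *Acta2* and 13.7% and 14% for *Cnn1*. At a threshold of 20 UMIs *Acan* stood at 48.5% in A.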
